A study of Mus musculus with 83 samples.

Results

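The genes described here are 36 of the 21571 symbols in the count table, taken by name: every symbol of the Hnrnp or Srsf series, with Tra2a, Tra2b, Ptbp1, Ptbp2 and Syncrip, and without symbols marked as pseudogenes. They comprise 21 heterogeneous nuclear ribonucleoproteins (hnRNPs, Syncrip included), 11 serine/arginine-rich (SR) proteins, the SR-like pair Tra2a and Tra2b, and the polypyrimidine tract binding proteins Ptbp1 and Ptbp2. RNA came from single ovarian follicles of wild-type CD-1 mice, either fresh or vitrified (cryopreserved by cooling into a glass). Both kinds were grown for 8 days in alginate with recombinant FSH, and then given human chorionic gonadotropin (hCG), a ligand of the luteinizing hormone receptor, together with EGF and FSH. Collection took place at 0 h, 1 h, 4 h and 8 h of hCG exposure, and there were 18, 6, 7 and 4 fresh libraries and 15, 14, 7 and 12 vitrified libraries at these times. The labels give neither the animals' ages nor which follicles came from the same animal or culture, so every p-value refers to follicle-to-follicle spread, part of which may be technical.

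SR proteins and hnRNPs bind the pre-messenger RNA and shape which splice sites are used. SR proteins mostly bind exonic enhancers and help recruit the splicing machinery, whereas many hnRNPs bind silencers and work against exon inclusion. Their own levels are often tuned by alternative splicing of poison exons, which send a transcript to nonsense-mediated decay, so RNA levels per gene do not show which isoform was made. The hCG surge used here stands in for the ovulatory surge of luteinizing hormone, to which granulosa cells respond through cyclic AMP and EGF receptor signalling within hours.

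Library titles carry 3 prefixes with well positions, which are read here as 3 plates. Only the prefix of the 0 h libraries contains the word plate. All 0 h libraries were on a plate of their own, so any change from 0 h to 1 h cannot be told apart from a difference between plates. A shared plate held all fresh follicles of 1, 4 and 8 h with 5, 7 and 3 vitrified follicles of these times, and a vitrified-only plate held 9 vitrified follicles of 1 h and 9 of 8 h. Within a plate each group filled separate rows, so row and group cannot be told apart either. Sample numbers in the titles of the shared plate repeat, between fresh 4 h and fresh 8 h and between fresh 1 h and vitrified 1 h. The labels do not say whether its rows were processed together, so comparisons within it may cross batches. Plates are therefore shown apart, and values are given as scaled CPM, that is, estimated counts relative to the library's total after TMM scaling between libraries (written CPM below). Total counts ranged from 682200 to 6504588 per library. The 36 genes took a median of 0.477% of the counts in fresh follicles at 0 h, and 0.633%, 0.700% and 0.674% at 1, 4 and 8 h. In vitrified follicles the medians were 0.411% at 0 h and 0.653%, 0.668% and 0.514% at 1, 4 and 8 h on the shared plate.

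The labelled tissue was checked against markers of the follicle's cell types. Granulosa markers, 8 of 8 in the table, summed to medians of 54588 CPM in fresh follicles at 0 h, 59697 at 4 h and 11672 at 8 h. Inha and Inhba dominated this sum, with medians of 35800 and 20423 CPM over all libraries, against at most 2176 CPM for any other gene of the list. Foxl2 had a median of 5.71 CPM, and Amh was above 0 in 29 of 83 libraries. The granulosa sum therefore mostly follows Inha and Inhba and is no measure of granulosa cell content. Oocyte markers (Gdf9, Bmp15, the zona pellucida genes and others, 8 of 8 present) had medians between 9.73 and 20.7 CPM in the groups, far below the granulosa sums. Theca and stroma markers were present in every group, with medians of 1574 CPM in fresh follicles at 0 h, 6683 at 1 h, 4151 at 4 h and 2275 at 8 h. Cyp11a1 dominated this sum, with a median of 1974 CPM over all libraries, against at most 132 CPM for any other gene of the list. The sum therefore mostly follows Cyp11a1 and is no measure of theca or stroma content. Immune and endothelial markers had medians of at most 27.9 and 50.3 CPM. In bulk RNA from a follicle, fewer cells of a type and less RNA per cell cannot be told apart, and the part of these marker changes in the results below was not tested.

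Levels between genes were compared as TPM, which scales each gene by its length before scaling by the library. The most abundant members in fresh follicles at 0 h were Hnrnpa1 (median 349 TPM, n = 18), a shuttling hnRNP that represses exons, and Hnrnpk (230 TPM), which binds C-rich RNA. Hnrnpa2b1 (197 TPM) and Ptbp1 (184 TPM) followed, and Srsf5 (108 TPM) led the SR proteins. At the other end stood Hnrnpd (0.32 TPM) and Srsf12 (0.05 TPM). A repeat-like transcript, Gm10800, was the highest TPM entry in 81 of 83 libraries and the top entry took between 4.94% and 53.0% of TPM, so TPM levels are read here only within a library or group. Read that way, the order of the members changed with time. Hnrnpa1 was the highest member in 18 of 18 fresh and 14 of 15 vitrified follicles at 0 h. Ptbp1 was the highest in 6 of 6 fresh follicles at 1 h, in 4 of 5 vitrified follicles of the shared plate and in 9 of 9 of the vitrified-only plate. At 4 h Ptbp1 was the highest in 0 of 7 fresh and 0 of 7 vitrified follicles, with a median rank of 3 in both. At 8 h Ptbp1 was the highest in 0 of 4 fresh follicles, and in 1 of 3 vitrified follicles of the shared plate and 3 of 9 of the vitrified-only plate. Ptbp1 (chromosome 10, 79854427 to 79864771, + strand, GRCm38) had a median rank of 4 in fresh follicles at 0 h. Such ranks do not depend on how libraries were scaled against each other.

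Of the 36 genes, 34 passed the filter on low counts and were tested among 11889 genes. Hnrnpa0 (at most 4.88 CPM in any library) and Srsf12 (at most 2.65 CPM) did not.

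The first comparison asked what changed within 1 h of hCG. In fresh follicles 16 of the 34 members rose and 3 fell, where 19% of all genes tested rose and 23.1% fell. Members had a median log2 fold change of 0.43, against -0.11 over all genes. In vitrified follicles 26 rose and 1 fell on the shared plate (21.5% and 22% of all genes), and 27 rose and 1 fell on the vitrified-only plate (23.3% and 31.2%). All 16 members that rose in fresh follicles also rose in vitrified follicles of the vitrified-only plate, which made up 59.3% of the 27 called there. No library is common to these comparisons, but both start from libraries of the 0 h plate, so a plate difference would enter both. With 27 of the 34 members called there, a large overlap would arise for most sets of members. Scaling mattered: with total counts alone the median of all genes moved from -0.11 to -0.60 in fresh follicles, and the members split into 7 higher and 8 lower. On the shared plate that scaling gave 12 higher and 3 lower among vitrified follicles, and on the vitrified-only plate 16 and 5. Ptbp1, Tra2a, Tra2b and Srsf5 rose, and Srsf4, Hnrnpr and Srsf10 fell, in fresh follicles under each scaling and test tried.

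Ptbp1, which binds pyrimidine-rich tracts and represses many exons outside the nervous system, changed most in fresh follicles and on the vitrified-only plate. On the shared plate Hnrnpu, Hnrnpab and Srsf2 changed more, in values that include vitrified 1 h replicate 4, described further on. In fresh follicles its level was 358, 483 and 539 CPM (lowest, median and highest of 18) at 0 h and 2061, 2461 and 2824 CPM (n = 6) at 1 h. In vitrified follicles it was 402, 499 and 624 CPM (n = 15) at 0 h. At 1 h it was 3089, 3635, 3253, 2228 and 2953 CPM on the shared plate and 2457, 3408 and 4578 CPM (n = 9) on the vitrified-only plate. Every library at 1 h lay above every library at 0 h. The log2 fold changes were 2.37 (SE 0.10, adjusted p = 4.19e-37) in fresh follicles, 2.59 (SE 0.11, adjusted p = 4.56e-37) in vitrified follicles of the shared plate and 2.74 (SE 0.10, adjusted p = 1.18e-42) in those of the vitrified-only plate. Its count relative to that of Hnrnpk in the same library, a ratio free of scaling, had a median of 0.669 in fresh follicles at 0 h, 2.54 at 1 h, 1.11 at 4 h and 0.991 at 8 h. The vitrified medians were 0.848 at 0 h, 3.03 and 2.82 at 1 h on the shared and the vitrified-only plate, and 1.29 at 4 h. At 8 h they were 1.41 on the shared plate (1.37 to 1.55, n = 3) and 1.09 on the vitrified-only plate (0.962 to 1.28, n = 9). The fresh ratios at 8 h ran from 0.951 to 1.06 (n = 4), and differences between these ratios were not tested. The neuronal relative Ptbp2 was low, with medians of 8.47 CPM in fresh follicles at 0 h and 7.03 CPM at 1 h.

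The Tra2 proteins, SR-like activators that bind GA-rich enhancers, both rose. Tra2a was at 11.1, 16.4 and 28.7 CPM (lowest, median and highest) in fresh follicles at 0 h and at 45.9, 66.2 and 82.7 CPM at 1 h. In vitrified follicles it was at 10.7, 19.3 and 29.3 CPM at 0 h. At 1 h the vitrified values were 96.3, 96.2, 67.4, 57.8 and 53.2 CPM on the shared plate and 47.4, 81.1 and 112 CPM on the vitrified-only plate. No library at 1 h overlapped those at 0 h. Its log2 fold change was 1.93 (SE 0.15, adjusted p = 1.15e-20) in fresh follicles and 2.14 (SE 0.14, adjusted p = 2.33e-24) on the vitrified-only plate. Tra2b rose by 1.52 (SE 0.14, adjusted p = 9.11e-17) in fresh follicles, from a median of 58.8 to 171 CPM. Srsf5, an SR protein that binds exonic enhancers, rose by 1.48 (SE 0.16, adjusted p = 1.49e-13) in fresh follicles, from a median of 129 to 408 CPM. On the vitrified-only plate Hnrnph1, which binds G-runs, rose by 1.94 (SE 0.13, adjusted p = 3.21e-23), and Srsf2, a core SR protein of exon definition, by 1.93 (SE 0.47, adjusted p = 0.00039).

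Srsf4, one of the long SR proteins, went the other way. In fresh follicles it was at 16.3, 26.5 and 35.6 CPM at 0 h and at 10.3, 14.9 and 18.2 CPM at 1 h. Vitrified values were 9.19, 24.5 and 35.6 CPM at 0 h. At 1 h they were 11, 7.75, 11.1, 16.5 and 17.6 CPM on the shared plate and 5.23, 8.56 and 11.7 CPM on the vitrified-only plate. The ranges at 0 h and 1 h overlapped. Srsf4 fell, with log2 fold changes of -0.88 in fresh follicles (SE 0.19, adjusted p = 0.000107), -0.98 (SE 0.21, adjusted p = 5.99e-05) in vitrified follicles of the shared plate and -1.56 (SE 0.19, adjusted p = 1.59e-11) on the vitrified-only plate. Hnrnpr, which acts in RNA processing and transport, also fell by 0.88 (SE 0.16, adjusted p = 4.3e-06) and Srsf10, an SR protein that represses splicing when dephosphorylated, by 0.48 (SE 0.13, adjusted p = 0.00151) in fresh follicles. The ratio of Srsf4 to Srsf5 counts within a library had a median of 0.195 in fresh follicles at 0 h, 0.0383 at 1 h, 0.132 at 4 h and 0.283 at 8 h.

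**Figure D1:**
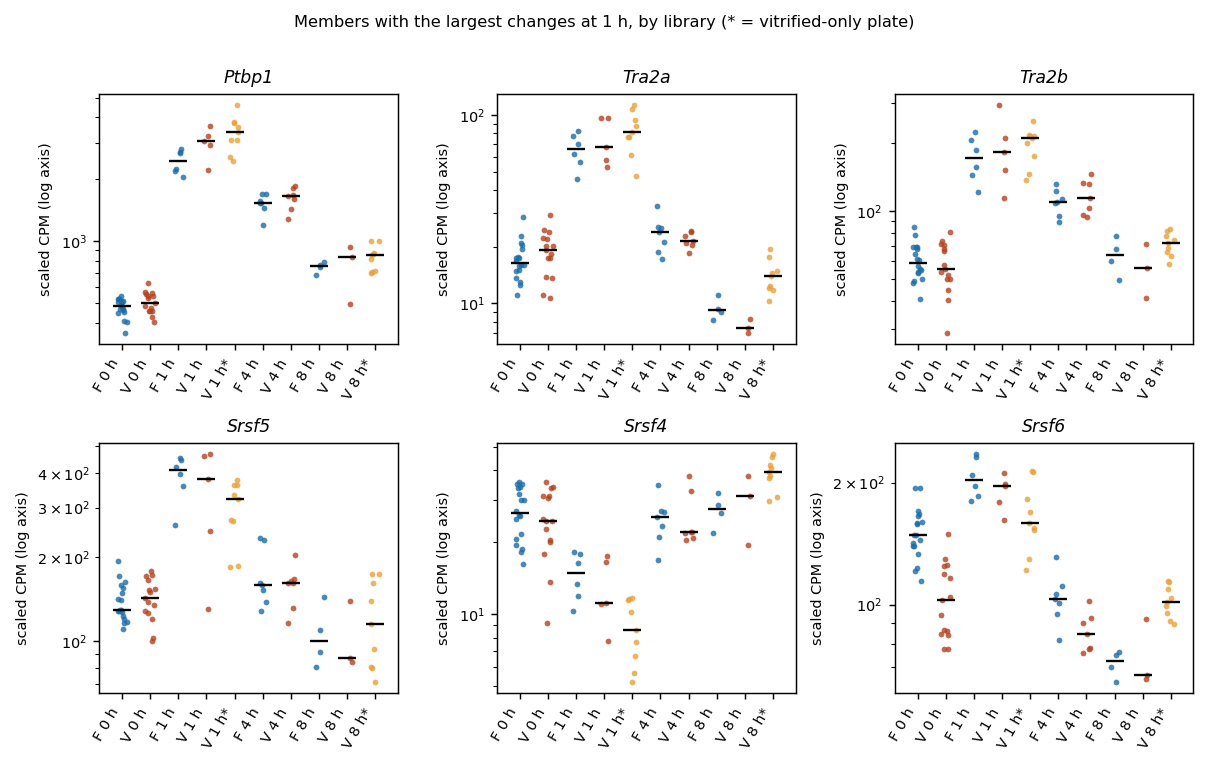
Scaled CPM (log axis) of Ptbp1, Tra2a, Tra2b, Srsf5, Srsf4 and Srsf6 in each of 83 libraries (points), by group, with the median as a bar; blue is fresh, red vitrified on the 0 h or shared plate, and orange (marked *) vitrified on the vitrified-only plate. Ptbp1 and Tra2a at 1 h lie above every 0 h library, and Srsf4 is lowest at 1 h.

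Promoters of the 4 members that rose together in fresh follicles are shown because cyclic AMP, which hCG raises, acts on transcription partly through the factor CREB, whose cAMP response element is TGACGTCA. RefSeq windows from 250 bases before to 50 after the transcription start (GRCm38.p6) existed for 34 of the 36 genes. Capitals mark the core letters TGACG on either strand, so that the full element counts as 2 overlapping cores.
Ptbp1 (chr10:79854182-79854481, + strand): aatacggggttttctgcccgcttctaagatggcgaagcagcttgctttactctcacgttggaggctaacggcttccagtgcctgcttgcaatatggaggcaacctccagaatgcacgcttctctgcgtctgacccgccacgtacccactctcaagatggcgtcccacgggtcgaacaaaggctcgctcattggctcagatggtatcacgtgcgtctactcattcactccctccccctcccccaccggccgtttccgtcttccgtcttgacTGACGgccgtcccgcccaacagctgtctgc
Tra2a (chr6:49264003-49264302, - strand): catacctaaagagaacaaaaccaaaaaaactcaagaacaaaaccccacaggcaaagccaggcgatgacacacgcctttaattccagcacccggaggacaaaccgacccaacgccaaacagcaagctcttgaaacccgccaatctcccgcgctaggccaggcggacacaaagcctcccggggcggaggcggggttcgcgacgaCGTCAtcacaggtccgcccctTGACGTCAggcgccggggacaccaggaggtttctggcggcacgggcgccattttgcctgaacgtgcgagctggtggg
Tra2b (chr16:22265956-22266255, - strand): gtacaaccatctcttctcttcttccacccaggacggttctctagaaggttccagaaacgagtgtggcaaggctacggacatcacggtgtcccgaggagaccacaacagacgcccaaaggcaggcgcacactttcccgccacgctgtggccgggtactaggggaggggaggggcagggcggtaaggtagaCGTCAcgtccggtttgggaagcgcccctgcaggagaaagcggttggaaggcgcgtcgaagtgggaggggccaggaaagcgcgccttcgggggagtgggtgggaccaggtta
Srsf5 (chr12:80945249-80945548, + strand): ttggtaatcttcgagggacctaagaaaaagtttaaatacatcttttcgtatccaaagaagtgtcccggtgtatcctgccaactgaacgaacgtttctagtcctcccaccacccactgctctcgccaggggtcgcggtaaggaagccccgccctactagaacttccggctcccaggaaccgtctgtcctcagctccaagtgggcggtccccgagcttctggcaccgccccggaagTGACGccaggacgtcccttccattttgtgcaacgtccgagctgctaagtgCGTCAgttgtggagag
The full element occurred in Tra2a alone of the 34 members, and in 3.21% of 12647 genes with a window. The core occurred in 22 of the 34 members (64.7%), against 32.3% of genes. Other promoter boxes were also more frequent in members: the Sp1 box GGGCGG in 85.3% against 63.8% of genes, and CCAAT in 55.9% against 42.8%. TATAAA occurred in 11.8% against 9.82%. The genes compared were not matched for base composition or expression. Whether the higher share of the core has to do with cyclic AMP was not tested. Of the members that fell in fresh follicles, Hnrnpr and Srsf10 held the core, and none of the 3 windows of Srsf4 did. Tra2a lies at chromosome 6, 49243924 to 49264033, Tra2b at chromosome 16, 22244549 to 22266005, both on the - strand, and Srsf5 at chromosome 12, 80945504 to 80950507, on the + strand. Ptbp1, Tra2a and Srsf4 overlap an opposite-strand gene of the table, and Tra2b has 4 near copies there, and their shared reads cannot be assigned without strand or the handling of multiple matches. These matches describe letters in a window and say nothing about binding.

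The step from 1 h to 4 h was measured within the shared plate, whose rows may not have been processed together. In fresh follicles 11 members rose and 6 fell (21.9% and 24.5% of all genes tested), and the same split was found under every scaling, filter and tool tried. The median of the members was 0.25, against -0.03 over all genes. In vitrified follicles 7 rose and 13 fell (20.6% and 25.9%), with a median of -0.18 against -0.11. Without vitrified 1 h replicate 4, a library described further on, 8 rose and 8 fell. All 7 members that rose in vitrified follicles were among the 11 of the fresh (63.6% of them), and all 6 that fell in fresh follicles were among the 13 (46.2%). No library is common to the fresh and vitrified steps.

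The members that fell in both were Tra2a, Tra2b, Ptbp1, Srsf5, Srsf6 and Hnrnph3. Those that rose in both were Hnrnpa2b1, Hnrnpa3, Hnrnpdl, Hnrnpf, Hnrnpm, Srsf10 and Srsf4, so both sets held SR proteins and hnRNPs. Tra2a went from a median of 66.2 to 23.8 CPM in fresh follicles (17.3 to 32.8 at 4 h, n = 7) and stood at 18.5, 21.3 and 24.3 CPM in vitrified follicles at 4 h. Its 4 h libraries did not overlap those of 1 h in either kind of follicle. It fell by 1.49 (SE 0.19, adjusted p = 1.9e-10) in fresh and by 1.77 (SE 0.20, adjusted p = 1.16e-12) in vitrified follicles. Srsf5 fell by 1.18 (SE 0.20, adjusted p = 5.36e-07), Srsf6, another SR protein, by 0.98 (SE 0.14, adjusted p = 3.95e-09) and Hnrnph3, a relative of Hnrnph1, by 0.89 (SE 0.22, adjusted p = 0.000445) in fresh follicles.

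By family, 9 of 20 tested hnRNPs rose and 1 fell from 1 h to 4 h in fresh follicles, and 5 rose and 5 fell in vitrified ones. Of 10 SR proteins 2 rose and 2 fell in fresh follicles, and 2 rose and 5 fell in vitrified ones; the families were not tested against each other. Hnrnpf (chromosome 6, 117900324 to 117925622, + strand), which binds G-runs beside splice sites, was at 241, 289 and 323 CPM at 1 h and at 766, 923 and 1034 CPM at 4 h in fresh follicles. In vitrified follicles of the shared plate it was at 354, 362, 355, 331 and 272 CPM at 1 h and at 628, 819 and 978 CPM at 4 h. The 4 h libraries lay above all 1 h libraries in both kinds. It rose by 1.64 (SE 0.13, adjusted p = 1.12e-18) in fresh and by 1.28 (SE 0.14, adjusted p = 8.93e-13) in vitrified follicles. Other table genes hold near copies of Hnrnpf and Hnrnpa3 (8 and 25 gene models at 95% identity over 200 bases or more), and the handling of reads shared with them is not stated in the labels. Hnrnpa3, an hnRNP A/B protein, rose by 1.23 (SE 0.26, adjusted p = 3.8e-05) in fresh and by 0.89 (SE 0.26, adjusted p = 0.0035) in vitrified follicles; fitted with 1 term for the vitrified-only plate the vitrified change was 0.51 (adjusted p = 0.101). Srsf10 rose by 1.16 (SE 0.15, adjusted p = 2.78e-10) and by 0.99 (SE 0.16, adjusted p = 1.23e-07).

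Hnrnpll, known for exon skipping in activated lymphocytes, had the largest fresh change and the most uneven values. Its levels were 0.683, 2.04 and 10.5 CPM at 1 h and 0.640, 17.1 and 41.6 CPM at 4 h in fresh follicles, and the groups overlapped over the whole lower range. The change was 2.28 (SE 0.73, adjusted p = 0.00748), and 0.82 on the log2(TPM + 1) scale. Srsf4, lowest at 1 h, rose by 0.99 (SE 0.23, adjusted p = 0.000247) in vitrified follicles, to 20.4, 22 and 38 CPM.

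**Figure D2:**
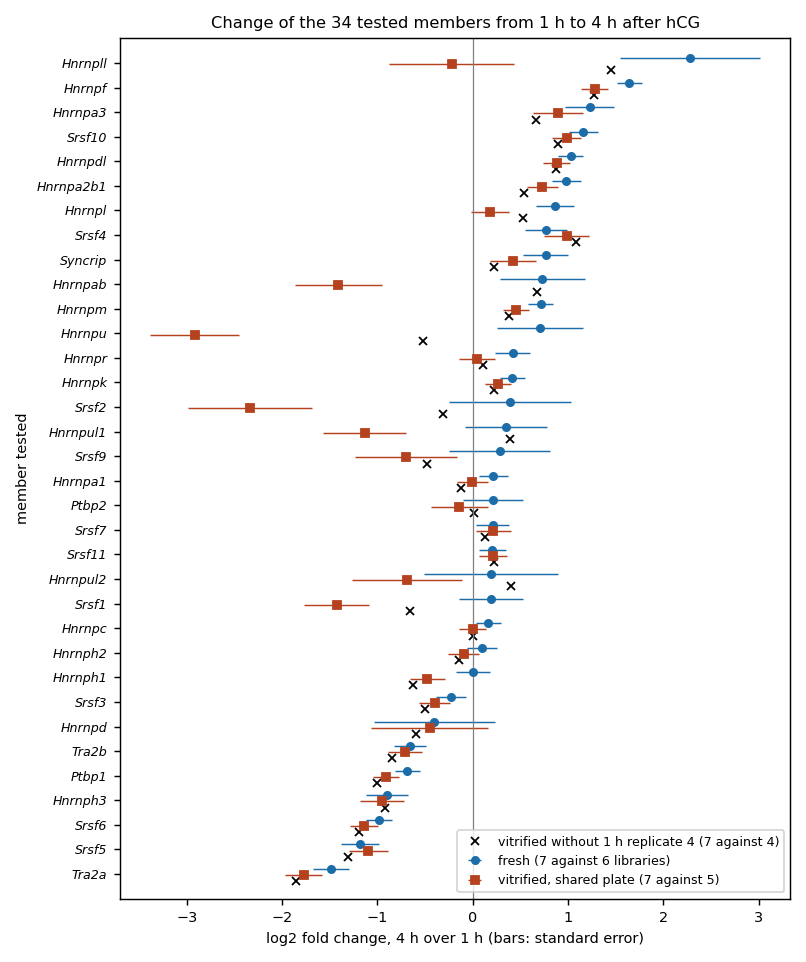
Log2 fold change from 1 h to 4 h (x axis) of each of the 34 tested members (y axis, in the order of the fresh change), with the standard error as a bar; circles are fresh, squares vitrified on the shared plate, and crosses vitrified without 1 h replicate 4. Tra2a falls by 1.49 in fresh and 1.77 in vitrified follicles, Hnrnpf rises by 1.64 and 1.28, and the squares of Hnrnpu, Srsf2, Hnrnpab and Hnrnpul1 lie far from their crosses.

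From 4 h to 8 h most called members fell under TMM scaling. In fresh follicles 17 fell and 2 rose (15.7% and 20.8% of all genes), with a median of -0.65 against 0.12 over all genes. In vitrified follicles of the shared plate 19 fell (15%) and 0 rose (22%), with a median of -1.01 against 0.17. No member rose at an unadjusted p under 0.05 there, DESeq2 also called 0, and limma on log2(TPM + 1) called 2. Of the members that fell, 15 fell in both, which is 88.2% of the 17 and 78.9% of the 19. The split depended on scaling. With total counts alone the median of all genes moved to 0.75 in fresh follicles and the members split into 11 higher and 6 lower; limma on log2(TPM + 1) gave 11 higher and 1 lower. In vitrified follicles the all-gene median moved to 0.73, and these settings gave 2 higher with 10 lower and 2 higher with 9 lower. The members' median lay below that of all genes in each case, by values of 0.00 against 0.75 with total counts alone and 0.10 against 0.35 with limma in fresh follicles.

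Hnrnpdl, a relative of Hnrnpd, fell under every setting tried in both kinds of follicle. It was at 226, 270.4 and 358 CPM in fresh follicles at 4 h, and at 66.5, 71.5, 90.5 and 73.8 CPM at 8 h. In vitrified follicles it was at 196, 253 and 282 CPM at 4 h, and at 55.6, 45.2 and 60.5 CPM at 8 h. The 8 h libraries lay below all 4 h libraries in both. It fell by 1.86 (SE 0.16, adjusted p = 8.28e-17) and by 2.19 (SE 0.18, adjusted p = 5.6e-17), and with total counts alone by 1.22 and by 1.61. Ptbp2 fell by 1.70 (SE 0.37, adjusted p = 0.000133) and 2.63 (SE 0.44, adjusted p = 8.25e-07), from medians of 8.33 and 11.6 CPM to single values between 1.44 and 2.95 CPM. In vitrified follicles Srsf2 fell by 3.09 (SE 0.99, adjusted p = 0.0097) and Hnrnpll by 2.44 (SE 0.91, adjusted p = 0.0283). Srsf2 was not called without vitrified 8 h replicate 2 (-2.95, adjusted p = 0.0538) or with 1 term for the vitrified-only plate (-0.06, adjusted p = 0.963), and Hnrnpll was not called under 8 of 10 alternatives. In fresh follicles Tra2a fell further, by 1.32 (SE 0.23, adjusted p = 2.1e-06), and Srsf11, an SR-like protein, by 1.12 (SE 0.17, adjusted p = 4.1e-08). Ptbp2, Tra2a and Srsf11 were not called in fresh follicles by limma on log2(TPM + 1), with changes of -0.22 for Ptbp2, -0.39 for Tra2a and -0.32 for Srsf11. The members that rose in fresh follicles were Hnrnpu and Hnrnpul1, by 1.25 (SE 0.48, adjusted p = 0.032) and 1.18 (SE 0.45, adjusted p = 0.0333). Neither was called without fresh 8 h replicate 4 (1.03, adjusted p = 0.121, and 0.97, adjusted p = 0.123) or without replicate 2 (1.24, adjusted p = 0.0565, and 1.09, adjusted p = 0.0817).

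**Figure D3:**
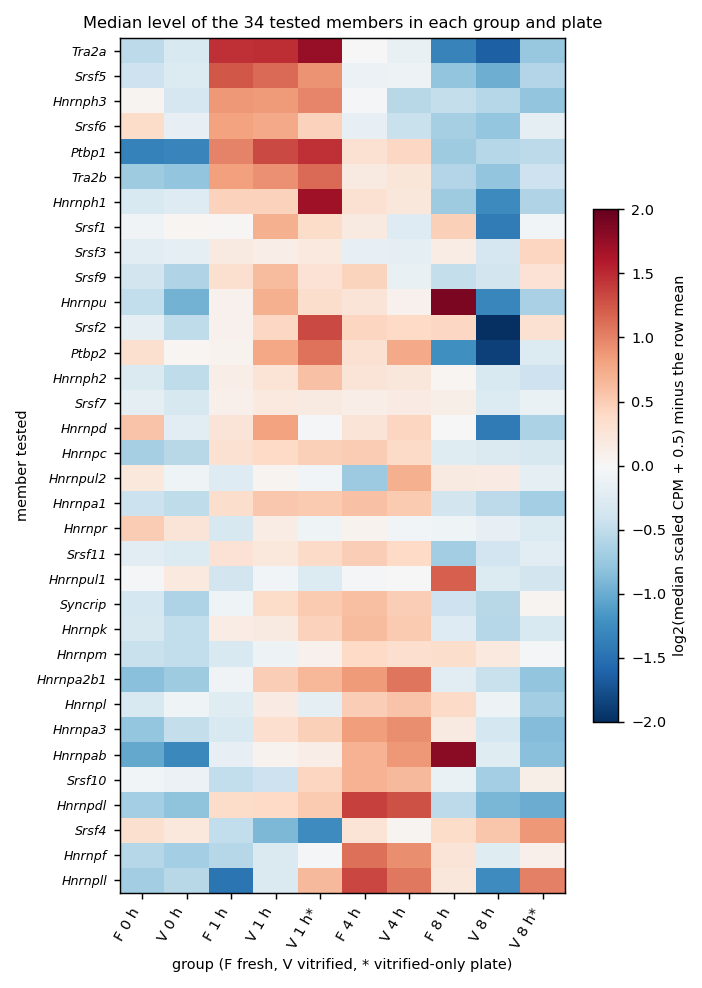
Median scaled CPM of each tested member (rows) in each group and plate (columns), as log2(CPM + 0.5) minus the member's mean over the columns; red is higher and blue lower. Rows are ordered by the difference between the 4 h and the 1 h columns, from members lower at 4 h than at 1 h, such as Tra2a and Srsf5, to members higher at 4 h than at 1 h, such as Hnrnpf and Hnrnpll.

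The vitrified-only plate gave a separate measure of the time course, from 1 h to 8 h in 9 against 9 follicles. There 20 members fell and 1 rose (27.4% and 32% of all genes), with a median of -0.70 against 0.11. On the shared plate, with 3 against 5 follicles, 25 fell and 1 rose (23.9% and 26.2%), with a median of -1.25 against 0.02. The plates had 18 falling members in common (90.0% of the 20 and 72.0% of the 25), and Srsf4 was the member that rose on both. With total counts alone the vitrified-only plate gave 11 lower and 9 higher, and the all-gene median moved to 0.89. On the shared plate that scaling gave 12 lower and 4 higher, with the all-gene median at 0.76. Under limma on log2(TPM + 1) the splits were 7 lower with 15 higher and 8 lower with 7 higher.

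Ptbp1, which had been at 2457 to 4578 CPM at 1 h on the vitrified-only plate, was at 699, 859.6 and 1005 CPM at 8 h, and fell by 2.01 (SE 0.11, adjusted p = 2.28e-28). Tra2a fell from 47.4 to 112 CPM down to 10.4, 13.9 and 19.4 CPM, a change of -2.55 (SE 0.17, adjusted p = 1.16e-24). Hnrnph1 changed by -2.20 (SE 0.16, adjusted p = 5.31e-22) and Hnrnph3 by -1.78 (SE 0.19, adjusted p = 9.11e-14). Srsf4 rose from 5.23 to 11.7 CPM up to 29.6, 39.1 and 46.6 CPM, a change of 2.17 (SE 0.20, adjusted p = 1.34e-16), with no overlap between times. On the shared plate Srsf4 was at 31.3, 37.7 and 19.4 CPM at 8 h and rose by 1.19 (SE 0.27, adjusted p = 0.000135). The members named so far in this time course kept their direction and their call under each scaling and test tried. The largest falls on the shared plate were those of Srsf2 (-5.43, SE 1.08, adjusted p = 2.05e-05), Hnrnpu (-3.76, SE 0.68, adjusted p = 3.07e-06), Tra2a (-3.30, SE 0.28, adjusted p = 3.43e-17) and Ptbp2 (-2.77, SE 0.45, adjusted p = 2e-07). Without vitrified 1 h replicate 4 all 4 were still called, at -3.40 for Srsf2, -1.36 for Hnrnpu, -3.38 for Tra2a and -2.62 for Ptbp2.

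The same time was also compared between plates. At 1 h, 4 of 34 members differed between the vitrified follicles of the 2 plates (1.37% of all genes): Hnrnph1 (0.97, SE 0.19, adjusted p = 0.00155) and Srsf10 (0.73, SE 0.15, adjusted p = 0.00281) were higher on the vitrified-only plate, and Hnrnpu and Hnrnpab lower. Hnrnpu and Hnrnpab were not called without replicate 4 of the shared plate (-0.08 and -0.10), and Srsf10 was not called by limma on log2(TPM + 1) (0.59, adjusted p = 0.109). At 8 h, 14 differed (23.4% of all genes), 11 higher and 3 lower on the vitrified-only plate. Srsf2 differed most (3.51, SE 0.98, adjusted p = 0.00549), with 2.49, 2.07 and 2.58 CPM on the shared plate and 6.33, 23.5 and 63.7 CPM on the other. Hnrnpll (2.69), Ptbp2 (1.59) and Tra2a (0.91) were also higher there, and Hnrnpa3 (-0.79), Hnrnpl (-0.63) and Hnrnpa2b1 (-0.49) lower. Each of these 6 calls was lost on leaving out a vitrified 8 h library of the shared plate: Hnrnpll without replicate 1, 2 or 3, Hnrnpl without 2 or 3, Hnrnpa3 without 1, and Ptbp2, Tra2a and Hnrnpa2b1 without 3. Srsf2 stayed called in each case. Without replicate 3, 5 members differed at 8 h.

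Vitrified and fresh follicles were compared at each time. At 0 h, 1 of 34 members, Srsf6, differed (0.967% of all genes). With total counts alone 2 were called, and limma on log2(TPM + 1) called 10. The share of all genes is given here for TMM only. Srsf6 was at 114, 148 and 194 CPM in fresh and at 77.6, 103 and 149 CPM in vitrified follicles, ranges that overlap. It was lower by 0.53 on the log2 scale after vitrification (-0.53, SE 0.09, adjusted p = 4.5e-05) and stayed called under every setting tried. At 4 h, 0 members were called by edgeR (0.118% of all genes), DESeq2 or limma, and 1 reached an unadjusted p under 0.05 in edgeR.

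At 1 h on the shared plate 3 members were higher in vitrified follicles (0.555% of all genes): Hnrnpu, a nuclear scaffold protein, by 3.06 (SE 0.50, adjusted p = 0.000232), Hnrnpab by 2.30 (SE 0.49, adjusted p = 0.00649) and Hnrnpl, which binds CA repeats, by 0.86 (SE 0.21, adjusted p = 0.026). These calls rest on vitrified 1 h replicate 4. In fresh follicles Hnrnpu was at 27.4, 35.6 and 43.2 CPM (n = 6). The 5 vitrified values were 76.0, 54.9, 53.1, 1248 and 38.2 CPM, of which 1248 is replicate 4. On the vitrified-only plate it was at 28.2, 42.5 and 137 CPM. Hnrnpab showed the same shape, with 136, 71.8, 66.6, 1456 and 63.4 CPM. In replicate 4, 201 genes of the table lay over 4 times above every other library of its group, against 9 to 18 in the other 4 libraries. Among the members these were Hnrnpu, Hnrnpab, Srsf2, Hnrnpul1, Hnrnpul2 and Hnrnpll. Its total count of 3656294 lay within the range of the other 4. Its composition differed: Gm10800 took 468892 TPM in it, against 109737 to 166169 TPM in the other 4. A value as high occurred elsewhere, with 530391 TPM in vitrified 0 h replicate 10. Whether this bears on the members was not tested. Without it, 0 members were called by edgeR and 4 reached an unadjusted p under 0.05, and Hnrnpu differed by 0.66 (adjusted p = 0.68), Hnrnpab by 0.21 (adjusted p = 0.926) and Hnrnpl by 0.51 (adjusted p = 0.556).

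The same library carried the tests of whether the time steps differed between kinds of follicle. From 0 h to 1 h, 2 members differed (0.16% of all genes), Hnrnpu by 3.30 (SE 0.57, adjusted p = 0.00156) and Hnrnpab by 2.57 (SE 0.57, adjusted p = 0.0214). From 1 h to 4 h 1 member differed (0.0421%), Hnrnpu by -3.62 (SE 0.65, adjusted p = 0.00353). Without replicate 4 none of these was called, with Hnrnpu at 0.90 (adjusted p = 0.85) and -1.22 (adjusted p = 0.892) and Hnrnpab at 0.48 (adjusted p = 0.964). Of the rises in vitrified follicles of the shared plate, those of Hnrnpu (3.91, SE 0.37) and Hnrnpab (3.47, SE 0.38) from 0 h to 1 h hold the same library. Srsf2 rose there by 2.89 (SE 0.52, adjusted p = 3.79e-06) with it, and by 0.86 without it, which was not called. From 1 h to 4 h the vitrified changes of Hnrnpu (-2.91), Srsf2 (-2.34) and Srsf1 (-1.43) became -0.52, -0.31 and -0.66 without it, and were not called. From 4 h to 8 h the steps differed in 0 members by edgeR (0.993% of all genes), in 1 by DESeq2 and in 1 by limma, and 8 reached an unadjusted p under 0.05 in edgeR.

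At 8 h on the shared plate 3 members were lower in vitrified follicles (2.06% of all genes). Hnrnpu (chromosome 1, 178321108 to 178337797, - strand) was at 105, 139, 110.1 and 192 CPM in the 4 fresh follicles and at 13.2, 11.3 and 39.7 CPM in the 3 vitrified ones, with no overlap. The difference was -2.65 (SE 0.65, adjusted p = 0.0128). The vitrified-only plate held 14.5, 21.2 and 36.6 CPM (n = 9), below every fresh 8 h library, though on another plate. Srsf2 (chromosome 11, 116849901 to 116853094, - strand) was at 14.9, 14.3, 35.7 and 128 CPM in fresh and at 2.49, 2.07 and 2.58 CPM in vitrified follicles, and differed by -4.32 (SE 1.05, adjusted p = 0.0117). On the vitrified-only plate its values of 6.33 to 63.7 CPM overlapped those of fresh follicles. Hnrnpf was at 530.2, 503, 621 and 444 CPM in fresh and at 366, 376 and 187 CPM in vitrified follicles, and differed by -0.76 (SE 0.18, adjusted p = 0.00733). On the vitrified-only plate it was at 394, 462 and 565 CPM, which overlaps the fresh values.

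With so few follicles at 8 h each of these 3 calls turned on single libraries. Hnrnpu was not called without vitrified replicate 1 (-2.41, adjusted p = 0.0758) or 2 (-2.31, adjusted p = 0.0929). Srsf2 was not called without fresh replicate 4 (-3.10, adjusted p = 0.129), vitrified replicate 2 (-4.19, adjusted p = 0.0667) or vitrified replicate 3 (-4.37, adjusted p = 0.113). Hnrnpf was not called without fresh replicate 3 (-0.65, adjusted p = 0.0534) or vitrified replicate 3 (-0.47, adjusted p = 0.399). Genes over 4 times above and below every other library of the group and plate numbered 109 and 229 in vitrified replicate 3. They numbered 38 and 174 in replicate 1, 72 and 38 in replicate 2, and at most 31 and 189 in fresh libraries. Such counts cannot be compared between groups of different size. In vitrified replicate 3 the members took 0.39% of the counts and Gm28437 was the top TPM entry. Whether this bears on the calls was not tested. Hnrnpab, not called, was at 363, 195, 160.4 and 289 CPM in fresh and at 40.2, 57.8 and 71.9 CPM in vitrified follicles (-2.15, adjusted p = 0.0589). Fitted with 1 term for the vitrified-only plate, Hnrnpu differed by -1.26 (adjusted p = 0.37) and Srsf2 by -1.29 (adjusted p = 0.619). Hnrnpu overlaps Cox20, Hnrnpab overlaps Phykpl, and Srsf2 overlaps Mettl23 and Mfsd11 on the opposite strand; the library kit does not mark strand, so reads from the overlaps cannot be assigned to either.

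**Figure D4:**
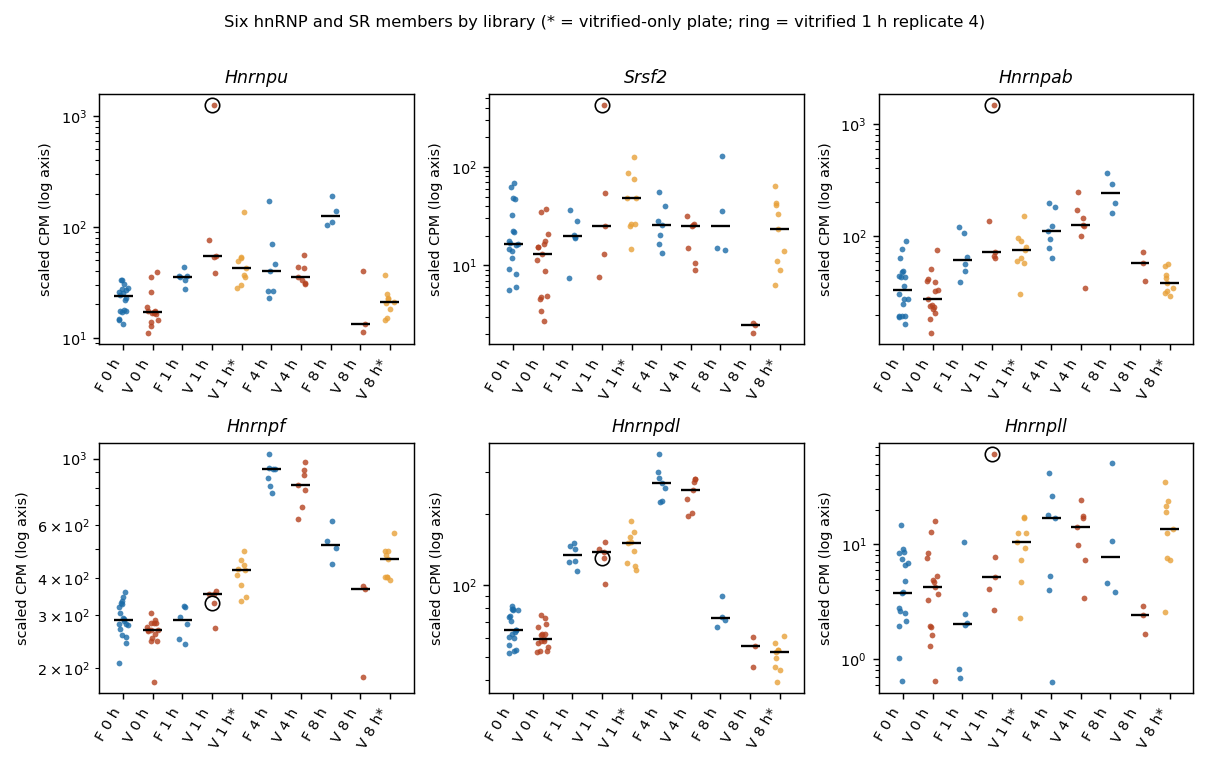
Scaled CPM (log axis) of Hnrnpu, Srsf2, Hnrnpab, Hnrnpf, Hnrnpdl and Hnrnpll in each library (points), by group, with the median as a bar; colours and * are as in the plot of the early members, and the ring marks vitrified 1 h replicate 4; 1 fresh 0 h library with Hnrnpll at 0 is not drawn. Hnrnpu reaches 1248 CPM in the ringed library against 38.2 to 76.0 CPM in the rest of its group, and Hnrnpf is highest at 4 h.

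Other genes of the splicing pathway were described with the same fits. Among 13 tested kinases and phosphatases that act on SR proteins (14 listed), 8 rose and 3 fell from 0 h to 1 h in fresh follicles, with a median of 0.65. Clk1, a nuclear kinase of SR proteins, rose by 2.56 (SE 0.16, adjusted p = 8.59e-25), and Top1, a topoisomerase that also phosphorylates SR proteins, by 2.64 (SE 0.15, adjusted p = 1.6e-27). From 1 h to 4 h Clk1 fell by 1.15 (SE 0.21, adjusted p = 4.14e-06), while Srpk1, the chief cytoplasmic kinase of SR proteins, rose by 1.70 (SE 0.24, adjusted p = 4.6e-09). From 4 h to 8 h 2 of the 13 rose and 6 fell, among them Clk1 by 1.67 (SE 0.26, adjusted p = 1.37e-07) and Top1 by 2.21 (SE 0.25, adjusted p = 4.66e-12).

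Proteins of the U1, U2, U4, U5 and U6 particles, 38 tested of 40 listed, split into 3 higher and 9 lower from 0 h to 1 h in fresh follicles, and into 17 higher and 1 lower from 1 h to 4 h. Sf3a2, of the U2 particle, fell by 1.64 (SE 0.29, adjusted p = 2.16e-06) and then rose by 2.37 (SE 0.32, adjusted p = 1.62e-09). Branch site, 3' splice site and step factors (31 of 31 tested) split into 4 higher and 10 lower, then 15 higher and 4 lower. Their U2af1 and U2af2, the subunits that recognise the 3' splice site, rose by 1.71 (SE 0.25, adjusted p = 2.05e-08) and 1.59 (SE 0.31, adjusted p = 1.18e-05) from 1 h to 4 h. Other regulators of exon choice (31 of 36) split into 11 higher and 6 lower, then 13 and 4, and from 4 h to 8 h into 2 and 15. Of the nonsense-mediated decay and exon junction genes (14 of 15), 3 rose and 2 fell from 1 h to 4 h. In vitrified follicles from 1 h to 4 h, 16 of the particle proteins rose and 3 fell. Of the branch site and 3' splice site factors 14 rose and 2 fell, of the kinases and phosphatases 6 and 2, of the other regulators of exon choice 10 and 8, and of the decay and exon junction genes 6 and 1. The shares of all genes that rose and fell in these steps are those given above.

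Scaling moved the list counts of the other steps. The shares of all genes given above are those with TMM and are no reference for the counts below. With total counts alone the median of all genes itself moved, as given above, so these counts show the effect of scaling and are no result about the lists. With total counts alone, 0 h to 1 h in fresh follicles gave 6 higher and 4 lower kinases and phosphatases, 1 and 23 particle proteins, 2 and 19 branch site and 3' splice site factors, and 4 and 11 other regulators of exon choice. From 4 h to 8 h it gave 4 and 5 kinases and phosphatases and 5 and 4 other regulators; limma on log2(TPM + 1) gave 4 and 5, and 8 and 4.

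Between vitrified and fresh follicles at 8 h, 2 of the 31 other regulators of exon choice were higher and 4 lower, where 2.06% of all genes differed. That share is the one with TMM. With total counts alone 0 were higher and 4 lower. Khdrbs1 (Sam68), a signal-regulated RNA-binding protein, was lower by 3.49 on the log2 scale (-3.49, SE 0.60, adjusted p = 0.0002), and Ybx1, a cold-shock protein that binds RNA, by 3.87 (-3.87, SE 0.83, adjusted p = 0.00317). Khdrbs1 stayed called without any single 8 h library of the shared plate, and Ybx1 was not called without vitrified replicate 3 (-3.60, adjusted p = 0.0733).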

How the data were processed

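RNA of single follicles was sequenced from Smart-Seq2 and Nextera XT libraries, per the labels' protocols. The authors deposited estimated counts per gene for 83 libraries, and the same table as log2(TPM + 1). Partek, Bowtie2, HISAT2, DESeq2 and mm10 are named, without roles, in the submitters' processing notes; how reads matching several genes were treated is stated in none of these.

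Estimated counts were rounded to whole numbers, filtered with filterByExpr (minimum count 10), scaled by TMM and fitted with edgeR 4.0.16 (R 4.3.3; robust quasi-likelihood test) across 11889 genes, with a mean for each of 10 combinations of group and plate. Separate means were used so that the plate difference could vary with time. Between plates 163 genes differed at 1 h and 2779 at 8 h, but whether the plate difference itself changed with time was not tested. P-values were Benjamini-Hochberg adjusted within each comparison, and a gene was called at 0.05. SE is the size of the log2 fold change divided by the square root of F. Deposited log2 values served for levels between genes and for limma 3.58.1. DESeq2 1.42.0, other scalings, no filter, 1 plate term, the shared plate alone and single libraries left out were tried as alternatives. The fit was tested on simulated data.

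Named members are the called ones with the largest changes in each comparison, up to 4 in each direction, and of each list of other genes up to 3. Hnrnpu is named because earlier results of these data showed it; Ptbp2 at 1 h, Hnrnpab at 8 h and the count ratios were chosen after their values were seen. Members and lists were chosen with earlier results of these data known, so a list's direction is no independent evidence. Total counts per library limit the precision of low genes; values of several CPM rest on few reads. No chance test over lists was made.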

Additional observations from a re-analysis of the deposited data

Results flagged for a closer look

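In 63 sets of 9 members by group and plate, 8 had a highest library far from the rest by Dixon's criterion. Its nominal rate of 1 in 20 holds for normally distributed values, and the CPM were not log-transformed. The 9 members were chosen for the largest called changes in these data, so the count of 8 cannot be set against that rate. The groups at 0 h and the vitrified 8 h libraries of the shared plate were not covered. Vitrified 1 h replicate 4 of the shared plate gave 3 of these: Hnrnpu at 1248.22 CPM (next highest 76.05), Srsf2 at 421.76 (54.52) and Hnrnpll at 60.61 (7.75). Hnrnpu also stood apart in vitrified 1 h replicate 14 of the vitrified-only plate, at 137.22 CPM (54.09), in fresh 4 h replicate 3, at 172.27 (70.24), and in vitrified 8 h replicate 6, at 36.58 (24.63). Hnrnpll stood apart in fresh 1 h replicate 3, at 10.5 CPM (2.46), and in fresh 8 h replicate 4, at 50.64 (10.76). All 8 belong to Hnrnpu, Hnrnpll or Srsf2.

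The tests of whether a step differed between vitrified and fresh follicles gave 3 results, in log2 units. From 0 h to 1 h the vitrified step of Hnrnpu exceeded the fresh one by 3.30 and that of Hnrnpab by 2.57. From 1 h to 4 h the vitrified step of Hnrnpu was lower, by -3.62. Without vitrified 1 h replicate 4 none was called (0.90, 0.48 and -1.22).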

How the results depend on the processing

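No paired analysis was possible because the labels give no replicate numbers that tie follicles across groups. No named gene changed sign under an alternative, but the split of called members changed sides: fresh 4 h to 8 h (2 higher and 17 lower with TMM) and fresh 0 h to 1 h (16 and 3) with total counts alone, and fresh 4 h to 8 h and vitrified-only 1 h to 8 h (1 and 20) with limma, as given next. Counts are members called, higher before lower where 2 are given, and the cause of each difference was not tested. The shares of all genes given above are those of the main fit. The counts below are therefore not set against the share under their own setting, and are no result about the members.

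With total counts alone, vitrified minus fresh gave 2 at 0 h (1 with TMM), 1 at 1 h (3) and 5 at 8 h (3). The steps from 0 h to 1 h gave 7 and 8 in fresh follicles, 12 and 3 in vitrified ones of the shared plate and 16 and 5 on the vitrified-only plate. From 4 h to 8 h it gave 11 and 6 in fresh and 2 and 10 in vitrified follicles, and from 1 h to 8 h 4 and 12 on the shared and 9 and 11 on the vitrified-only plate. The 0 h to 1 h step differed between kinds in 1 member (2).

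Limma on log2(TPM + 1) gave 10, 0 and 6 for vitrified minus fresh at 0, 1 and 8 h. It gave 16 and 3 from 0 h to 1 h on the shared plate, 3 lower on the vitrified-only plate, 12 and 7 from 1 h to 4 h in vitrified follicles, and 11 and 1 in fresh and 2 and 9 in vitrified follicles from 4 h to 8 h. From 1 h to 8 h it gave 7 and 8 on the shared and 15 and 7 on the vitrified-only plate. Between plates it gave 1 at 1 h, and steps differed in 0, 0 and 1 members.

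DESeq2 gave 7 for vitrified minus fresh at 8 h, 3 lower from 0 h to 1 h on each plate, and 1 for the difference of the 4 h to 8 h steps. DESeq2 size factors in edgeR gave 3 and 2 lower from 0 h to 1 h on the shared and the vitrified-only plate. With 1 plate term, 3 were lower from 0 h to 1 h and 1 higher from 4 h to 8 h in vitrified follicles, and the 0 h to 1 h steps differed in 1. The shared plate alone gave 0 for vitrified minus fresh at 1 h, 0 higher from 4 h to 8 h in fresh follicles and 0 for the difference of the 1 h to 4 h steps. No filter gave 9 between plates at 8 h (14 with it).

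Leaving out single libraries gave 0 to 5 for vitrified minus fresh at 1 h (0 without vitrified replicate 4, 5 without replicate 3) and 1 to 3 at 8 h (1 without vitrified replicate 2 or 3). It gave 0 to 2 higher in fresh follicles from 4 h to 8 h (0 without replicate 2 or 4 of 8 h). In vitrified follicles of the shared plate it gave 1 to 2 lower from 0 h to 1 h, 8 to 13 lower from 1 h to 4 h and 1 to 2 higher from 1 h to 8 h. Between plates it gave 2 to 5 at 1 h and 5 to 10 at 8 h, and the steps differed in 0 to 3 members from 0 h to 1 h and 0 to 1 from 1 h to 4 h. The 0 and the 2 between plates at 1 h came without vitrified 1 h replicate 4, and the 5 at 8 h without vitrified 8 h replicate 3.

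Depth limits low members: Hnrnpll, Ptbp2 and Hnrnpd had few reads in many libraries, and Srsf2 had few in the vitrified 8 h libraries of the shared plate.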
